A study of Mus musculus with 16 samples.

Results

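The genes described here are 33 nucleolar ribosome biogenesis genes, given as a named list of classic Myc-responsive functions, among the 19822 genes of the filtered single-cell tables. All 33 were found by symbol, and each had UMIs in both tumour models. A UMI is a molecular tag that counts 1 captured transcript. The cells came from mammary tumours of female FVB/n mice, untreated and collected at end stage. WB1P tumours carry WapCre;Brca1F/F;Trp53F/F, and WB1P-Myc tumours carry the same alleles plus a Cre-inducible Myc construct at the Col1a1 locus that is followed by luciferase. Wap-Cre acts in mammary epithelium, so the deletions in both models and the Myc construct in 1 of them are directed to those cells and not to the stroma. Live, dapi-negative single cells were run through Drop-seq, which counts transcript 3′ ends in droplets. Each model was 1 cell suspension collected in 4 droplet fractions. A figure legend of the study mentions 2 mice per model, but no fraction is assigned to a mouse.

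Ribosomes are built in the nucleolus, where RNA polymerase I copies the rRNA genes. The precursor rRNA is then modified by small nucleolar ribonucleoproteins, cut by processing complexes and folded with ribosomal proteins into a small and a large subunit. Myc, a transcription factor that binds E-box sequences as a dimer with Max, is known to act on many genes of this route, and enlarged nucleoli are a classic feature of Myc-driven tumours.

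After the filter on 450 to 4000 genes and under 20% mitochondrial UMIs per barcode, 4798 of 8000 barcodes were kept, 1307 from WB1P and 3491 from WB1P-Myc. The kept cells had a median of 1724 and 2358 UMIs in the 2 models. The first WB1P fraction stood apart, with 65 kept cells against 394 to 422 in the other WB1P fractions and 756 to 950 in the WB1P-Myc fractions. Among the kept cells, 1 barcode was shared between libraries. Clusters were named from marker genes as epithelial-like (673 WB1P and 1374 WB1P-Myc cells), Schwann-like (1075 cells, all WB1P-Myc), macrophage-like (379 and 695 cells), fibroblast-like (218 and 275 cells) and endothelial-like (37 and 72 cells). The epithelial-like cells of the 2 models were largely different clusters, since 1 cluster held 667 of the 673 WB1P cells and another held 1365 of the 1374 WB1P-Myc cells. The WB1P cluster was led by genes such as Csn3, Lcn2 and Krt7. The WB1P-Myc cluster was led by Gpx2, Bex1 and H19, and its name rests on Krt19, Krt14, Krt17, Cdh1 and Cldn7, none of them among its 10 leading genes. The Schwann-like cluster carried Sox10, Mbp and S100b, and its leading genes included the cartilage collagen Col2a1. The 16 epithelial markers summed to 65.3 UMIs per 10000 in WB1P and 23.9 in WB1P-Myc epithelial-like cells, with 1 of them at 0 in WB1P and none in WB1P-Myc. The 12 Schwann markers summed to 1.28 and 4.93 in the same cells, and their part in the results was not tested. The models were run as separate suspensions, so model, mouse and droplet run cannot be told apart. With 1 suspension per model no test was possible, and values over fractions show technical spread only. Intervals are 95% exact intervals that cover counting error only.

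The canonical E-box CACGTG, the sequence bound by Myc and Max, was present in 6 of the 33 genes in the window from 250 bases before to 50 bases after an annotated transcription start. RefSeq windows on GRCm38.p6 were found for 28 genes. The motif reads the same on both strands and is shown in capitals, 5′ to 3′ along the gene's own strand, with up to 12 flanking bases that stay inside the window. These sequences are shown because the genes that hold the motif include both the largest and the smallest differences between the models.
Mybbp1a: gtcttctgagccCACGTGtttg
Tsr1: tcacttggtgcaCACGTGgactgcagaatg
Wdr43: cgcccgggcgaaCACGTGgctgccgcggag
Utp20: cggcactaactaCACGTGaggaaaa
Pes1: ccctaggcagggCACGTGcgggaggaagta
Nop2: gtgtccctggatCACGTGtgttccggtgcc

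The printed stretches lie at chr11:72441355-72441376 on the plus strand for Mybbp1a, chr11:74898092-74898121 on the plus strand for Tsr1, chr17:71616220-71616249 on the plus strand for Wdr43, chr10:88826765-88826789 on the minus strand for Utp20, chr11:3963965-3963994 on the plus strand for Pes1 and chr6:125131811-125131840 on the plus strand for Nop2. The centre of the motif was 43, 27, 20, 40 and 5 bases after the start in Mybbp1a, Tsr1, Wdr43, Utp20 and Pes1, and 57 bases before it in Nop2. The share with the motif was 21.4% of the 28 matched genes and 8.09% of the 27025 genes in the same collection of windows. A match is a description of letters and does not show that a factor was bound.

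Myc itself, the transcription factor encoded by the transgene, was counted in every fraction that held epithelial-like cells. In WB1P epithelial-like cells it stood at 33.6, 68.2, 93.5 and 49.2 UMIs per 1000000 UMIs of the class (CPM) in fractions 1 to 4. In WB1P-Myc epithelial-like cells it stood at 197, 213, 188 and 202 CPM. All 4 WB1P-Myc fractions were above all 4 WB1P fractions, and the pooled levels of 67.2 and 200 CPM (199.7) gave a 2.97-fold ratio, or 1.57 on the log2 scale (interval 1.31 to 1.84). The construct carries luciferase after Myc, and whether 3′ counting assigned its transcripts to Myc was not tested. Schwann-like cells had 151, 140, 79.0 and 86.8 CPM of Myc, below every WB1P-Myc epithelial-like fraction and partly within the WB1P range. Stromal Myc was not higher in the WB1P-Myc model, with 30.1 CPM in WB1P and 25.9 CPM in WB1P-Myc macrophage-like cells and 123 against 97.4 CPM in fibroblast-like cells.

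The 33 genes together stood more than 2-fold higher in the epithelial-like cells of the Myc model. Their summed level was 117, 83.8, 89.5 and 86.7 UMIs per 10000 in WB1P fractions 1 to 4 and 209, 206, 195 and 189 in WB1P-Myc fractions 1 to 4. Every WB1P-Myc fraction lay above every WB1P fraction. The pooled levels were 87.8 and 200 (200.04) per 10000, a 2.28-fold ratio (interval 2.24 to 2.32), and the ratio was 2.31-fold without the first WB1P fraction. Nucleolin (Ncl) and nucleophosmin (Npm1) supplied 39.8% and 11.8% of the summed UMIs in WB1P and 31.6% and 20.7% in WB1P-Myc. Without both genes the ratio was 2.24-fold.

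**Figure D1:**
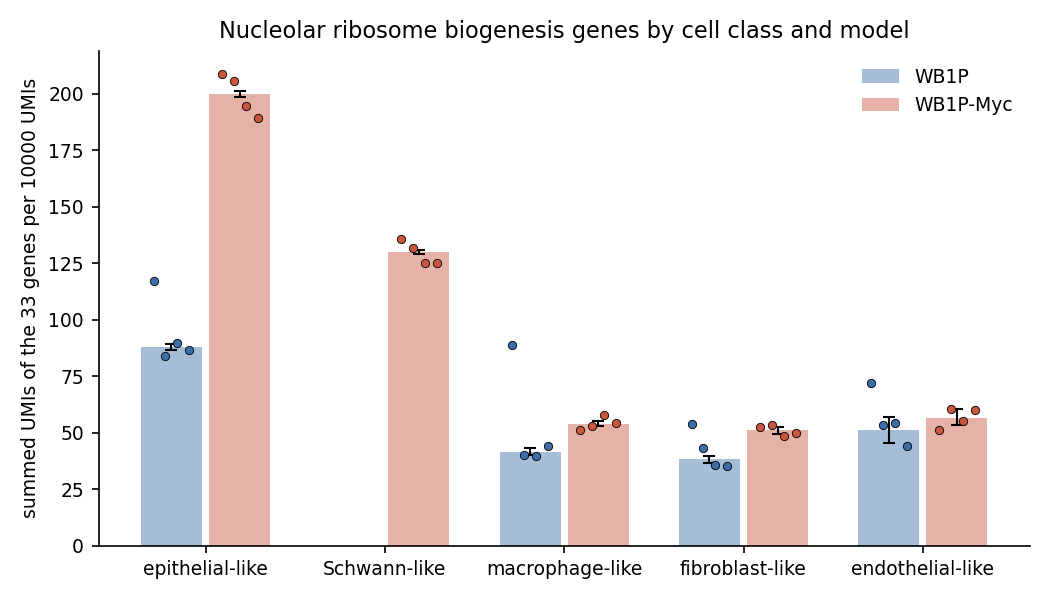
Summed UMIs of the 33 genes per 10000 UMIs (vertical axis) in each marker-named class, for WB1P and WB1P-Myc. Bars are pooled values with 95% Poisson intervals and points are the 4 droplet fractions. WB1P-Myc epithelial-like cells are highest at 200 (200.04), Schwann-like cells follow at 130 (130.02), WB1P epithelial-like cells stand at 87.8, and macrophage- and fibroblast-like cells lie between 38.3 and 54.0.

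Gene by gene, 32 of the 33 had a higher pooled CPM in WB1P-Myc epithelial-like cells, with a median log2 ratio of 1.23. The median over all 9466 genes tested was 0.01. A gene was called higher or lower when the pooled CPM differed at least 1.5-fold and the 4 fractions of 1 model all lay beyond the 4 of the other. By this rule 26 of the 33 were called higher, against 17.5% of all genes tested. None was called lower, against 15.6% of all genes, and by the fold alone 29 were higher and 0 lower, against 27.3% and 26.2%. The genes differed widely among themselves, from 5.93-fold higher for Mybbp1a to 0.943-fold for Wdr43.

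**Figure D2:**
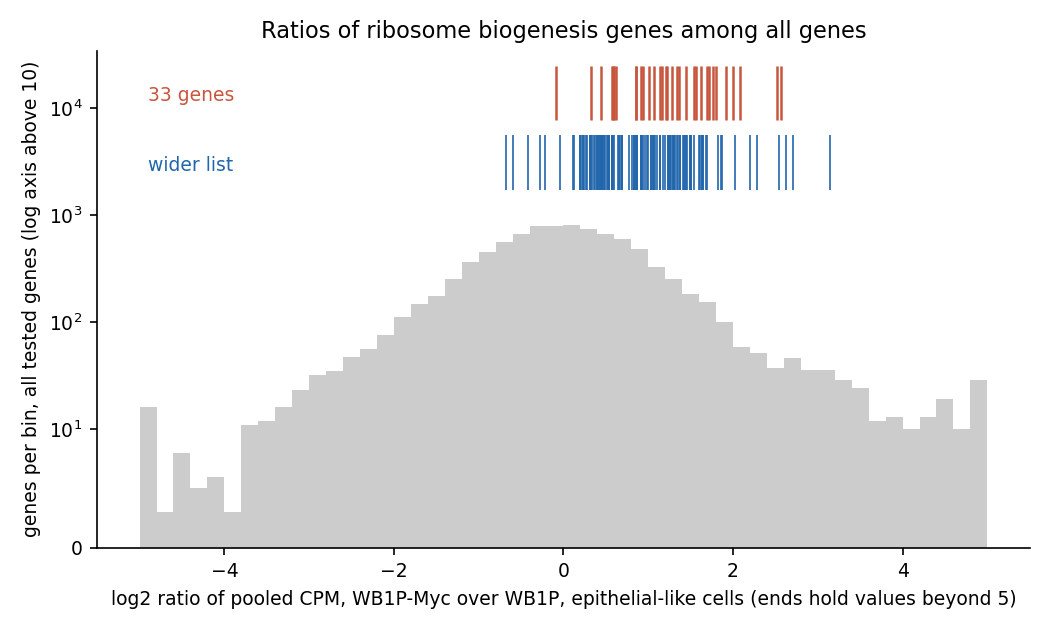
Distribution of log2 ratios of WB1P-Myc over WB1P epithelial-like cells for all 9466 genes tested, set beside the 33 ribosome biogenesis genes. The median of the 33 is 1.23 and that of all genes is 0.01.

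The genes of RNA polymerase I and rDNA transcription were called higher in 4 of 4 cases, with a median log2 ratio of 1.46. Mybbp1a, a nucleolar protein that takes part in rDNA transcription and rRNA processing, had the largest ratio of the whole set. Its WB1P fractions were at 190, 84.6, 128 and 93.9 CPM and its WB1P-Myc fractions at 614, 643, 632 and 576 CPM. The fractions were far apart, and the log2 ratio was 2.57 (2.37 to 2.77). Over the alternatives that keep all fractions it ran from 1.46 to 3.21. With finer clustering (resolution 0.6), Mybbp1a was a leading gene of an unnamed cluster with a median of 1184 UMIs. That cluster held 593 WB1P-Myc and 20 WB1P cells, and its part in the ratio was not tested. Ddx21, an RNA helicase that links rDNA transcription to rRNA processing, was at 258, 188, 269 and 219 CPM in WB1P and at 757, 765, 701 and 665 CPM in WB1P-Myc. No fractions overlapped, and its log2 ratio was 1.70 (1.56 to 1.84). The largest subunits of the polymerase, Polr1a and Polr1b, were counted far less often, with 53 and 31 UMIs in WB1P. Polr1a stood at 26.0 against 60.8 CPM, a log2 ratio of 1.23 (0.80 to 1.68). Polr1b stood at 15.2 against 35.2 CPM, a log2 ratio of 1.21 (0.66 to 1.81), and is uncertain because a 60-base stretch near its 3′ end recurs in transcripts of 55 other genes.

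The 3 abundant nucleolar proteins were all called higher, by unequal amounts. Npm1, a histone and ribosome chaperone of the granular nucleolus, stood at 1692, 1058, 939 and 998 CPM in WB1P and at 4460, 3910, 4078 and 4023 CPM in WB1P-Myc. The groups were well separated, with a log2 ratio of 2.00 (1.93 to 2.06). Ncl, an RNA-binding protein of rDNA transcription and early rRNA processing, stood at 4772, 3230, 3595 and 3530 CPM in WB1P and at 6389, 6639, 6304 and 5975 CPM in WB1P-Myc. Its fractions did not overlap either, but its log2 ratio was smaller at 0.86 (0.82 to 0.89), and the 2 intervals lay far apart. Nolc1, a chaperone of small nucleolar ribonucleoproteins, was at 795, 416, 510 and 399 CPM in WB1P and at 960, 978, 832 and 845 CPM in WB1P-Myc. Its log2 ratio was 1.00 (0.90 to 1.11), and the highest WB1P fraction, the first with 60 epithelial-like cells, came close to the WB1P-Myc values.

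Box C/D ribonucleoproteins carry guide RNAs that direct methylation of rRNA, and the 3 genes of their core proteins in the list were all called higher. Fibrillarin (Fbl), the methyltransferase, stood at 22.4, 121, 150 and 116 CPM in WB1P and at 378, 356, 328 and 390 CPM in WB1P-Myc, a log2 ratio of 1.56 (1.37 to 1.76). The scaffold protein Nop56 stood at 493, 489, 533 and 529 CPM against 1190, 1201, 1085 and 1051 CPM, a log2 ratio of 1.14 (1.05 to 1.24). Its partner Nop58 stood at 549, 660, 579 and 548 CPM against 1167, 1151, 1126 and 1036 CPM, a log2 ratio of 0.91 (0.82 to 1.00). All 3 were separated between the models, and the intervals of the 3 ratios did not overlap each other.

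Box H/ACA ribonucleoproteins, which direct pseudouridylation, showed a wider spread between partners. Dyskerin (Dkc1), the pseudouridine synthase, stood at 235, 112, 123 and 136 CPM in WB1P and at 600, 550, 495 and 506 CPM in WB1P-Myc, a log2 ratio of 2.08 (1.89 to 2.27). The core protein Nhp2 stood at 605, 213, 238 and 246 CPM against 667, 634, 616 and 621 CPM, a log2 ratio of 1.36 with a lower bound of 1.22. Its first WB1P fraction lay just below the WB1P-Myc fractions. Gar1, also a core protein, stood at 89.6, 113, 158 and 119 CPM against 193, 191, 174 and 189 CPM. All its WB1P-Myc fractions were higher, but the 1.49-fold ratio (log2 0.57, 0.37 to 0.78) fell just short of the call.

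**Figure D3:**
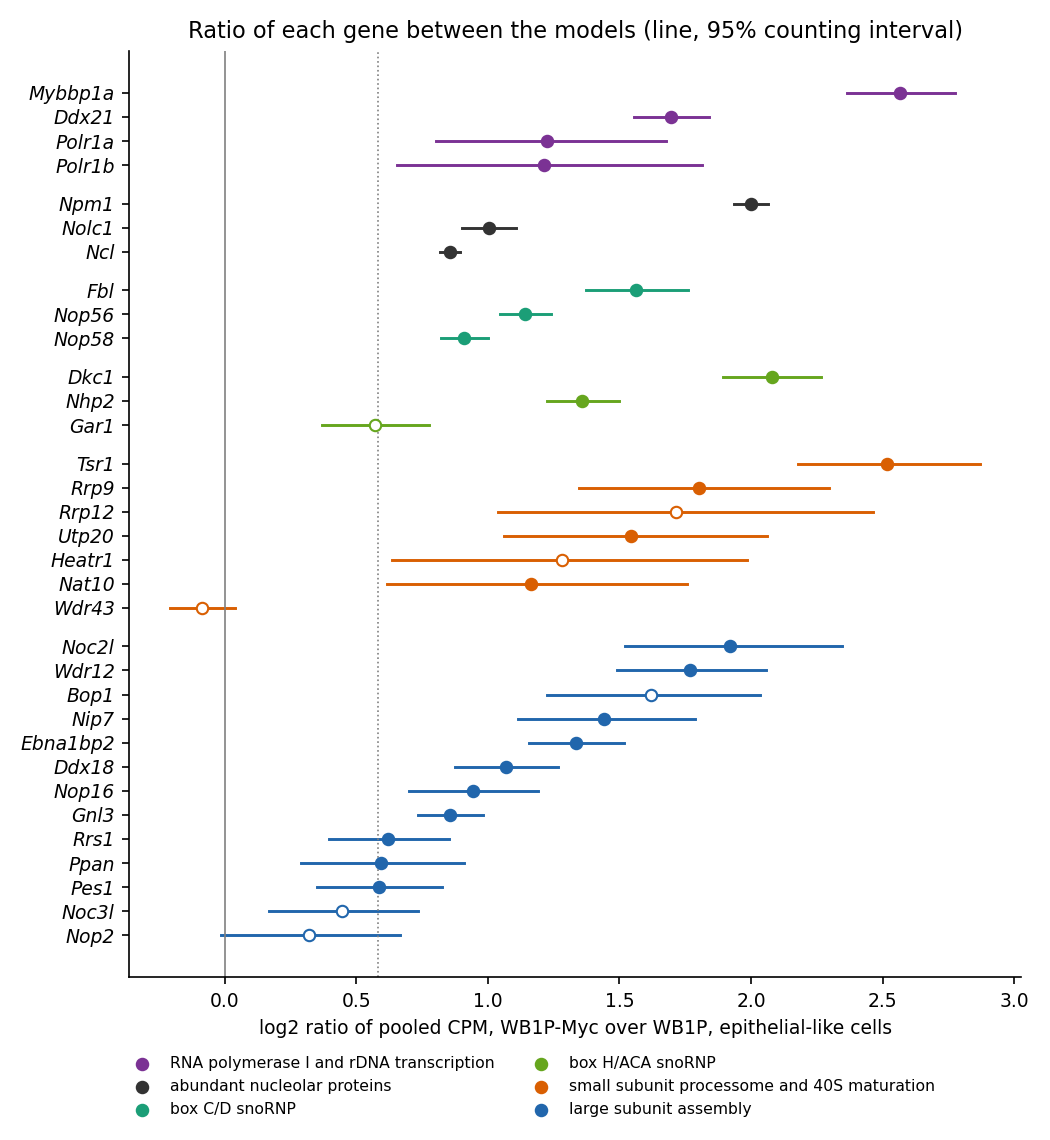
Log2 ratio of WB1P-Myc over WB1P epithelial-like cells (horizontal axis) for each of the 33 genes, grouped by role, with 95% counting intervals as lines. Filled points are called and open points are not, and the dotted line marks 1.5-fold. Mybbp1a, Tsr1 and Dkc1 are highest at 2.57, 2.52 and 2.08, and Wdr43 is the single gene below 0, at -0.08 here and 0.03 with mitochondrial and ribosomal protein UMIs left out of the total.

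Of the 7 genes of the small subunit processome and small subunit maturation, 4 were called higher, and the group ran from the smallest ratio of the set to the second largest, with a median log2 ratio of 1.54. Tsr1, a factor of late small subunit maturation, stood at 33.6, 39.6, 27.5 and 43.2 CPM in WB1P and at 222, 238, 195 and 196 CPM in WB1P-Myc. Its levels were well apart, with a log2 ratio of 2.52 (2.18 to 2.87). Wdr43, a processome subunit that joins the nascent precursor rRNA, was at 426, 383, 350 and 384 CPM in WB1P and at 380, 356, 346 and 334 CPM in WB1P-Myc. The fractions overlapped, and its log2 ratio of -0.08 (-0.21 to 0.04) was the only one below 0, and it was 0.03 with mitochondrial and ribosomal protein UMIs left out of the total. The interval ended below the ratio of each of the other 32 genes. Rrp9, a protein of the U3 ribonucleoprotein, had a log2 ratio of 1.80 (1.35 to 2.30) and was called. The large processome subunit Utp20, at 1.54 (1.06 to 2.06), and the rRNA acetyltransferase Nat10, at 1.17 (0.62 to 1.76), were called too. Rrp12, a small subunit export factor, and Heatr1, a processome subunit tied to rDNA transcription, had ratios of 1.72 (1.04 to 2.46) and 1.28 (0.64 to 1.99) but only 20 and 23 UMIs in WB1P. Their fractions overlapped and they were not called.

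Of the 13 genes of large subunit assembly, 10 were called higher, with a median log2 ratio of 0.94. Pes1, Bop1 and Wdr12 form the PeBoW complex, which is needed for maturation of the large subunit rRNAs. Wdr12 was at 101, 51.9, 49.5 and 65.6 CPM in WB1P and at 208, 213, 189 and 176 CPM in WB1P-Myc, a log2 ratio of 1.77 (1.49 to 2.06). Bop1 was at 89.6, 35.5, 12.8 and 26.8 CPM against 93.5, 86.6, 84.9 and 89.5 CPM, a log2 ratio of 1.62 (1.22 to 2.04), and its first WB1P fraction overlapped the WB1P-Myc range. Pes1 was at 112, 84.6, 82.5 and 107 CPM against 130, 151, 136 and 141 CPM. Its fractions were separate and its log2 ratio of 0.59 (0.35 to 0.83) sat just past the 1.5-fold threshold of the call, with an interval below those of both partners.

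Of the other 10 large subunit genes, 8 were called higher. Noc2l, a pre-ribosome transport factor, had a log2 ratio of 1.92 (1.52 to 2.35). Its relative Noc3l stood at 67.2, 54.6, 71.5 and 77.5 CPM in WB1P and at 92.8, 120, 72.2 and 81.1 CPM in WB1P-Myc. Those fractions overlapped, and the ratio of 0.45 (0.17 to 0.73) was not called. The assembly factor Nip7 had a ratio of 1.44 (1.11 to 1.79), uncertain because its 3′ sequence recurs in 53 other genes. Ebna1bp2 at 1.34 (1.16 to 1.52), the helicase Ddx18 at 1.07 (0.88 to 1.27), Nop16 at 0.94 (0.70 to 1.19) and nucleostemin (Gnl3), a nucleolar GTPase, at 0.86 (0.74 to 0.98) were all called. Rrs1 and Ppan, early large subunit factors, passed the call at 0.62 (0.40 to 0.85) and 0.60 (0.29 to 0.91). Nop2, an rRNA methyltransferase, stood at 67.2, 43.7, 55.0 and 44.7 CPM against 61.6, 65.2, 63.7 and 49.4 CPM, and its ratio of 0.32 (-0.01 to 0.66) was not called.

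The E-box was present at both ends of these ratios. Mybbp1a and Tsr1 hold CACGTG and had the largest ratios, while Wdr43 and Nop2 hold it and had the smallest. Dkc1, next by ratio, was matched to a window without it, as were Gar1 and Noc3l. Npm1, Fbl, Bop1, Rrp12 and Rrs1 had no window in the collection.

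In GENCODE vM21, the annotation for mm10, all 33 are protein-coding. Mybbp1a spans chr11:72441355-72451768 and Tsr1 chr11:74898071-74909342, both on the plus strand. Dkc1 spans chrX:75095854-75109777 on the plus strand, Npm1 chr11:33152287-33163206 on the minus strand, Ncl chr1:86344719-86359400 on the minus strand and Wdr43 chr17:71615895-71659031 on the plus strand. Ncl, Nop56, Nop58, Dkc1, Wdr43, Tsr1, Ppan and Gnl3 enclose 23 annotated small nucleolar RNA genes. These 8 host genes are 24.2% of the 33, while 279 of 21951 protein-coding genes (1.27%) are hosts. The hosts ranged from Tsr1 at 2.52 to Wdr43 at -0.08 in log2 ratio, so hosting, like the E-box, was found at both ends. Apart from such small RNA genes, none of the 33 overlapped a gene on its own strand. Transcript ends shared a 60-base stretch with 8 other genes for Npm1, 6 for Nop56, 4 for Dkc1, 3 each for Ddx18 and Wdr12, 2 for Fbl and 1 for Ncl, so the counts of these 7 genes also carry some uncertainty.

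Pathway genes outside the 33 were also mostly higher, with a smaller median. In a wider list of 125 further ribosome biogenesis genes, 124 were tested, 118 had a ratio above 0, and the median was 0.91. That list, like the 33 genes, was chosen with earlier results of these data known. Of the 124 tested, 61 were called higher and 1 lower. The highest log2 ratios were those of Nle1 at 3.14, Nol12 at 2.71, Aatf at 2.63 and Pelp1 at 2.54, and the lowest were those of the helicase Ddx47 at -0.68, the gene called lower, Emg1 at -0.60, Eif6 at -0.42 and Taf1b at -0.28. The 78 genes of cytosolic ribosomal proteins, the structural products of the pathway, had a median of 0.44 with 30 called higher. A list of 20 proliferation genes had a median of 0.36. Of them 3 were called higher, a share no larger than the 17.5% over all genes. By fold alone 8 of the 20 were higher and 0 lower, beside 27.3% and 26.2% of all genes. Their summed level was 18.3 UMIs per 10000 in WB1P and 31.3 in WB1P-Myc, a 1.71-fold ratio (1.65 to 1.78). Among cells with no proliferation UMI after thinning to 1000 UMIs, the 33 genes summed to 67.1 per 10000 in 231 WB1P cells and 166 in 202 WB1P-Myc cells. Of the 15 genes tested there 9 were called higher and 0 lower, beside 12.3% and 7.79% of all genes. A cell with no proliferation UMI at this depth can still be proliferating.

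Of 7 partners and antagonists of Myc tested, 1 was called lower and 1 higher, shares near the 15.6% and 17.5% over all genes. Max, its dimer partner, had a log2 ratio of -0.17 (-0.56 to 0.22), and the repressors Mnt, Mxi1 and Mxd4 had ratios of -0.27, -0.06 and -0.04, none of them called. Mxd1, which competes with Myc for Max, stood at 33.6, 62.8, 20.2 and 32.8 CPM in WB1P and at 4.25, 7.42, 7.64 and 5.86 CPM in WB1P-Myc. The fractions did not overlap, and at -2.70 (-3.34 to -2.08) it was called lower. Mlx, a relative of Max, was called higher at 0.99 (0.53 to 1.47), while Mga at 0.64 (0.31 to 0.98) was not called. Mycn, Mycl and Mxd3 had fewer than 50 UMIs over both models and were not tested.

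In the stroma, to which Wap-Cre is not directed, the ratios between the models were smaller for most of the same genes. Expression of the transgene in these cells was not tested. Macrophage-like cells summed to 88.7, 40.2, 39.9 and 44.3 UMIs per 10000 in WB1P fractions 1 to 4, the first from 2 cells, and to 51.3, 53.0, 57.7 and 54.3 in WB1P-Myc. The pooled ratio was 1.30-fold (54.0 over 41.7) with and without that fraction. With finer clustering (resolution 0.6), 19 WB1P and 79 WB1P-Myc cells formed a T or NK-like cluster at 61.0 and 82.0 per 10000. The macrophage-like class then held 360 and 616 cells at 41.0 and 51.1 per 10000. The part of T or NK-like cells in the 1.30-fold ratio was not tested. Of the 23 genes tested, 21 had a log2 ratio above 0, with a median of 0.34 beside 0.13 over all 5132 genes, or 0.21 relative to them. By fold alone 8 were higher and 0 lower, where 17.7% and 8.75% of all genes were. The fold alone was used because the first WB1P fraction held few stromal cells. With all 4 fractions required to lie apart, 2 of 23 were called higher, Wdr12 and Gnl3, and 0 lower, beside 8.26% and 0.779% of all genes, so that count was near the background. Dkc1 had the largest ratio at 1.10 (0.54 to 1.70), followed by Mybbp1a at 0.98 (0.44 to 1.57), Tsr1 at 0.84 (0.02 to 1.74), Wdr12 at 0.75 (0.09 to 1.46) and Npm1 at 0.73 (0.56 to 0.90). Noc3l, Nop16 and Gnl3 were the other 3. Ncl was at 0.20 (0.10 to 0.31), Fbl at -0.15 and Nip7 at -0.43, the latter 2 with intervals that span 0.

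Fibroblast-like cells gave 53.9, 43.4, 35.9 and 35.1 per 10000 in WB1P and 52.6, 53.2, 48.6 and 49.8 in WB1P-Myc. The first WB1P fraction, again from 2 cells, was the only one to reach the WB1P-Myc range, and the pooled ratio was 1.33-fold (51.1 over 38.3). Of the 20 genes tested, 18 were above 0, with a median of 0.31 beside 0.06 over all 4435 genes. By fold alone 3 were higher and 0 lower, where 10.9% and 7.53% of all genes were. With all 4 fractions apart, 1 of 20 was called higher, Dkc1, and 0 lower, beside 3.99% and 0.722%. The 3 past the fold were Wdr12 at 1.21 (0.22 to 2.31), Npm1 at 0.95 (0.77 to 1.13) and Dkc1 at 0.84 (0.26 to 1.46). In endothelial-like cells 5 genes could be tested, with a median of 0.03 beside 0.01 over all 898 genes. None passed the fold, where 12.6% of all genes were higher and 10.7% lower.

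The ratio in epithelial-like cells was above that in macrophage-like cells for 21 of the 23 genes tested in both, with a median difference of 0.93 log2 units. Among all genes tested in both, 41.3% had the higher ratio in epithelial-like cells. Against fibroblast-like cells it was higher for 19 of 20 genes, with a median difference of 0.81, where 42.7% of all genes were. Other quantities also differed between the models in these stromal cells. The 20 proliferation genes summed to 7.37 and 13.2 per 10000 in macrophage-like and to 6.19 and 9.86 in fibroblast-like cells of WB1P and WB1P-Myc. The Schwann markers summed to 0.226 and 1.65 in macrophage-like cells, with 8 and 3 of 12 at 0, and to 0.326 and 1.68 in fibroblast-like cells, with 7 and 5 at 0. Epithelial markers went the other way, at 4.47 and 2.98 in macrophage-like and 2.85 and 1.58 in fibroblast-like cells. Their part in the stromal ratios was not tested.

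**Figure D4:**
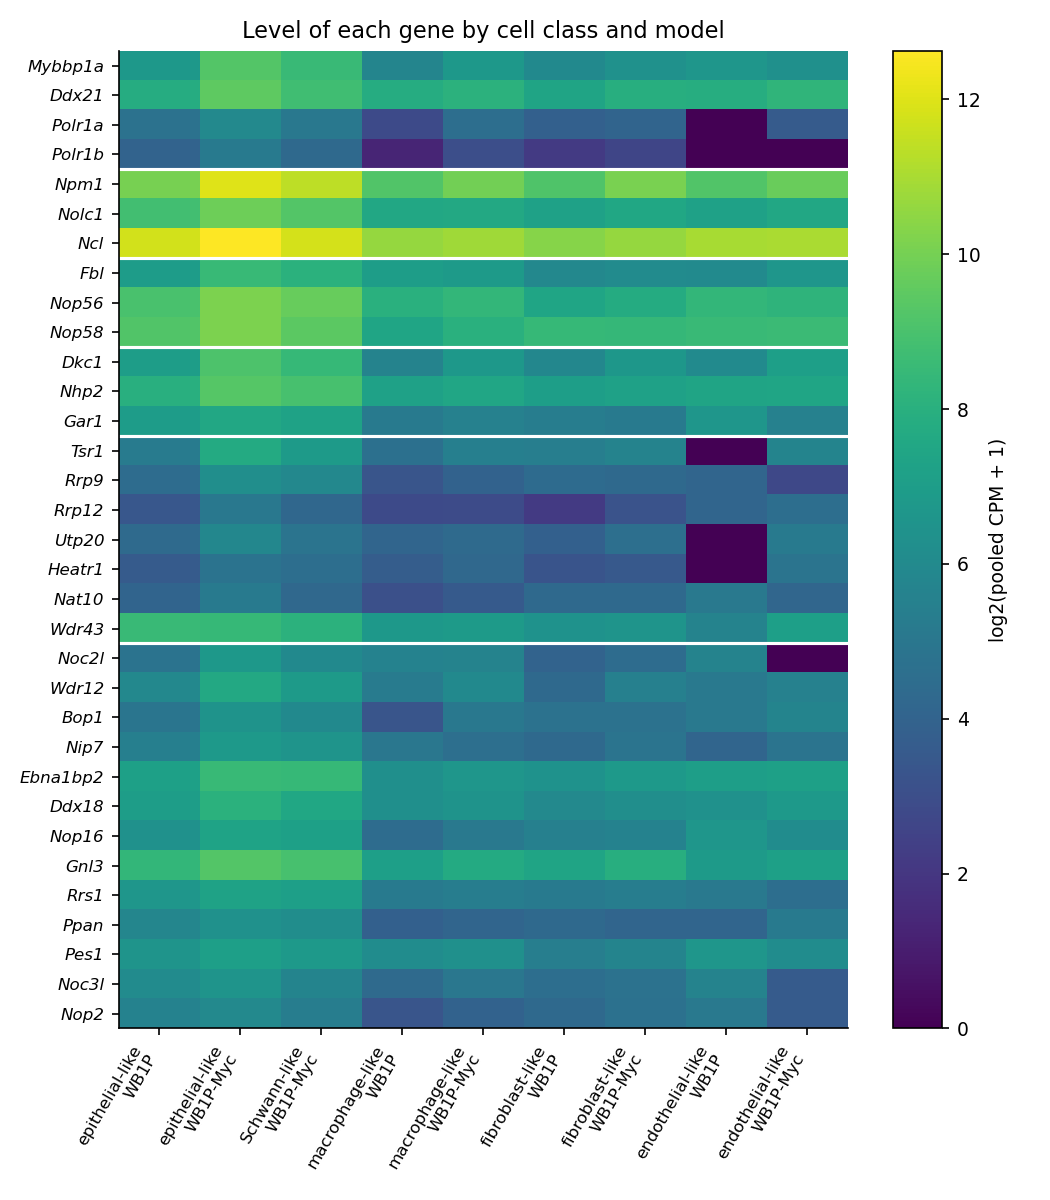
Log2(pooled CPM + 1) of each of the 33 genes (rows, grouped by role with white lines between roles) in each class and model (columns). Most rows are highest in WB1P-Myc epithelial-like cells. Wdr43 is at 377 CPM in WB1P and 355 CPM in WB1P-Myc epithelial-like cells.

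Within the WB1P-Myc tumours, Schwann-like cells had a lower pooled CPM than epithelial-like cells for each of the 33 genes, although the intervals of Rrs1, Heatr1 and Ebna1bp2 reached 0. The classes are clusters of the same cells and their genes took part in the clustering, so class contrasts are descriptions. The summed level was 136, 132, 125 and 125 per 10000 in Schwann-like cells, below all epithelial-like fractions, and pooled 0.650-fold. Log2 ratios ran from -1.01 for Utp20 to -0.06 for Ebna1bp2, with a median of -0.58 beside 0.02 over all 10331 genes. Called lower were 14 and called higher 0, beside 11.9% and 15.6% of all genes. Ncl, at 3638 against 6331 CPM, had a ratio of -0.80 (-0.83 to -0.77), and Npm1 a ratio of -0.64 (-0.68 to -0.61). The large subunit genes Rrs1, Nop16 and Ppan lay at -0.15, -0.17 and -0.22, closest to 0 after Ebna1bp2. Cytosolic ribosomal proteins had a median of -0.01 in the same contrast, with 0 called, while the proliferation genes had a median of -0.81 with 13 of 20 called lower.

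Compared with WB1P epithelial-like cells, the Schwann-like cells had the higher summed level, 1.48-fold, with all fractions above. These ratios share their samples with the contrasts above. Their median was 0.70 beside 0.08 over all 9352 genes, and 30 of 33 were above 0. Called higher were 14 and called lower 0, beside 19.5% and 14.3% of all genes. Mybbp1a at 1.85 (1.64 to 2.06), Tsr1 at 1.66 (1.31 to 2.03), Rrp9 at 1.48 (1.01 to 1.98) and Dkc1 at 1.47 (1.28 to 1.66) led. Ncl was at 0.06 (0.02 to 0.10), and Wdr43, Noc3l and Nop2 were at -0.43, -0.40 and -0.27. Npm1, at 1.36 (1.29 to 1.42), again lay far from Ncl. The proliferation list had a median of -0.23 here, with 1 called higher and 6 lower.

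Without the transgene, the tumour cells already had more of these transcripts than the stroma of the same suspension. In WB1P, epithelial-like cells summed to 2.11-fold the macrophage-like level and 2.29-fold the fibroblast-like level. The 20 proliferation genes were further apart, at 2.48-fold and 2.95-fold, and their part in these ratios was not tested. Over macrophage-like cells the median log2 ratio of the 28 genes tested was 1.08 beside 0.38 over all genes. By fold alone 22 were higher and 1 lower, beside 41.4% and 20% of all genes. Nop2 at 2.41 (1.24 to 3.89) and Polr1a at 2.11 (0.67 to 4.04) were highest, and Noc2l at -0.77 (-1.42 to -0.08) was the one past the fold in the other direction. Over fibroblast-like cells the median was also 1.08, beside 0.34 over all genes, with 24 of 28 higher and 0 lower by fold, beside 40.2% and 19.8% of all genes. Wdr43 at 2.14 (1.72 to 2.58) and Gar1 at 1.68 (1.06 to 2.36) led there. Wdr43, Gar1, Nop2 and Noc3l, with the smallest ratios between the models, had ratios over macrophage-like cells of 1.84, 1.86, 2.41 and 1.78. Over fibroblast-like cells they were at 2.14, 1.68, 1.35 and 1.59. The ratios between the models share the WB1P epithelial-like cells with these, so picking genes with low ratios there favours high ones here.

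The summed level was also read in single cells, where counting error makes up part of the spread. With every cell thinned to 1000 UMIs and shallower cells left out, the summed level of the middle cell was 70 per 10000 among 525 WB1P epithelial-like cells, with 10% of cells at 20 or below and 10% at 150 or above. Among 1179 WB1P-Myc epithelial-like cells the same points were 100, 190 and 310. Among 1036 Schwann-like cells they were 50, 120 and 210. Poisson counting around 1 common level per class would by itself put the outer points at 50 and 120 in WB1P epithelial-like cells. The same points would be 140 and 250 in WB1P-Myc epithelial-like and 80 and 170 in Schwann-like cells. The measured spread was clearly wider than that of counting in each class, at 20 to 150, 100 to 310 and 50 to 210. At this depth a typical cell showed 4 of the 33 genes in WB1P and 8 in WB1P-Myc epithelial-like cells.

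Cells in which a Myc UMI was seen were compared with the other cells of the same class after thinning. In WB1P epithelial-like cells, 35 of 525 (6.67%) had a Myc UMI, and the 33 genes summed to 82.6 per 10000 with and 81.7 without it, 1.01-fold (0.893 to 1.14). In WB1P-Myc epithelial-like cells, 194 of 1179 (16.5%) had one, and the levels were 204 and 193, 1.06-fold (1.02 to 1.10). The interval leaves out the spread between cells, which was wider than that of counting. The ratio was 0.928, 1.04, 1.17 and 1.11 in fractions 1 to 4, so the direction was not the same in every fraction. Proliferation genes were at 37.1 and 28.2 per 10000 in the same cells, a 1.32-fold ratio. Their ratio was 0.92-fold (0.68 to 1.22) in WB1P epithelial-like and 0.91-fold (0.75 to 1.09) in Schwann-like cells. In Schwann-like cells, 112 of 1036 (10.8%) had a Myc UMI, and the levels were 126.1 and 126.0, 1.00-fold (0.946 to 1.06). A cell without a Myc UMI at this depth can still express Myc, so the split is a coarse one. Whether Myc UMIs include transcripts of the construct was not tested, so the split need not follow the transgene.

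**Figure D5:**
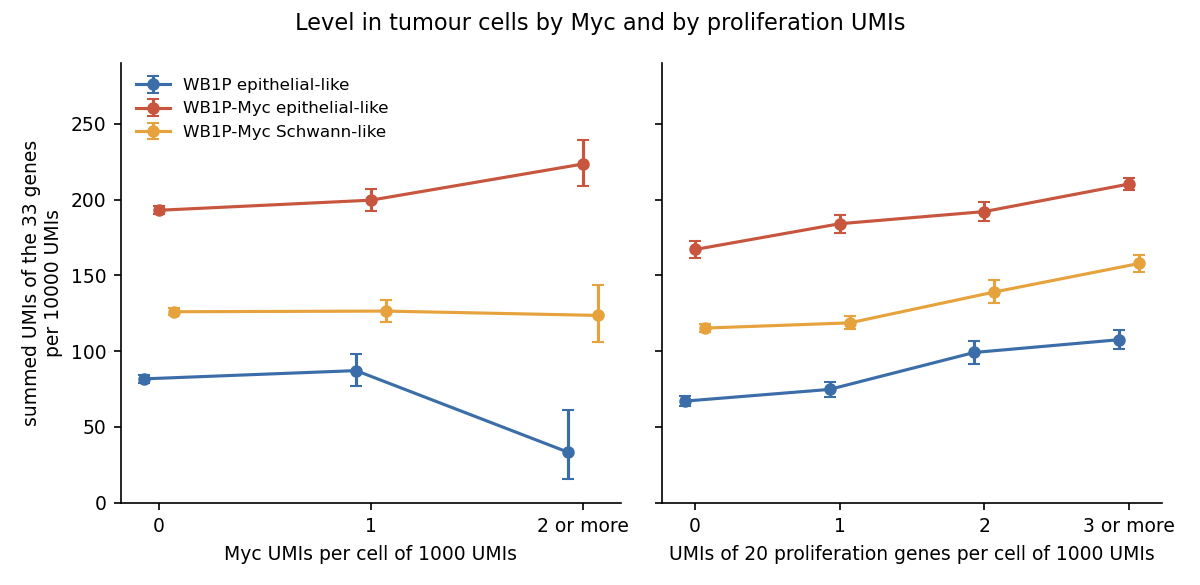
Summed level of the 33 genes per 10000 UMIs in cells thinned to 1000 UMIs, by the number of Myc UMIs in the cell. WB1P epithelial-like, WB1P-Myc epithelial-like and Schwann-like cells are shown, and a tumour origin of the Schwann-like cells was not tested. By Myc UMIs, WB1P-Myc epithelial-like cells run from 193 with none to 200 (199.7) with 1 and 223 with more. Schwann-like cells stay between 124 and 126 there, and only 3 WB1P cells have more than 1 Myc UMI.

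Gene by gene, 15 of the 33 could be tested in the WB1P epithelial-like split, with a median log2 ratio of -0.03 beside -0.03 over all 1796 genes. By fold 2 were higher and 3 lower, beside 13.2% and 20.1% of all genes, with Dkc1 lowest at -1.15. In the WB1P-Myc epithelial-like split 29 could be tested, with a median log2 ratio of 0.04 beside -0.04 over all 3484 genes. By fold 0 were higher and 1 lower, beside 5.31% and 11% of all genes, and the ratios ran from -1.18 for Nip7 to 0.43 for Pes1. In Schwann-like cells 26 were tested, with 2 higher and 1 lower by fold, beside 7.09% and 13.8% of all genes. Over cells, Spearman's rho between the number of Myc UMIs and the summed level was -0.03 in WB1P epithelial-like, 0.04 in WB1P-Myc epithelial-like and 0.00 in Schwann-like cells (525, 1179 and 1036 cells, which share libraries and depth). With the summed proliferation genes rho was 0.31, 0.20 and 0.21. Myc had only 39, 240 and 128 UMIs in these cells, while the proliferation value sums 20 genes. Counting error therefore lowers the rho with Myc more, and the sizes cannot be compared. In WB1P-Myc epithelial-like cells the level of the 33 genes went from 167 per 10000 in cells with no proliferation UMI through 184 and 192 to 210 (210.2) in cells with 3 or more. In WB1P it went from 67.1 to 108 over the same bins, in a random thinning drawn separately from the one above.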

How the data were processed

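The samples were 8 Drop-seq libraries, 4 droplet fractions from 1 suspension of WB1P and 4 from 1 of WB1P-Myc tumour cells. The authors made the deposited counts, whole UMIs per gene and barcode, with dropseq-tools, and the submitters' processing notes name mm10 and Scanpy. The HiSeq tables were used. The MiSeq tables, a repeat run of the same libraries, served as an alternative, and a merged table was not used here. There were 0 unused columns of per-sample values.

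Barcodes with at least 200 genes and genes in at least 3 cells were loaded. Cells with 450 to 4000 genes and under 20% mitochondrial UMIs were kept. As deposited, single libraries held 256985 to 1918672 UMIs in WB1P and 3814562 to 4960334 in WB1P-Myc. Over all libraries of a model, filtering took 5740712 UMIs to 3346429 in kept cells of WB1P and 16710713 to 11940519 in WB1P-Myc. No doublet caller was run, and the upper limit on genes removed 40 and 134 barcodes. For clustering, each cell was brought to a total of 10000 and values were put on a log scale. Leiden clustering used 30 components, 20 neighbours and resolution 0.3 (scanpy 1.11.5, igraph 0.11.9, scikit-learn 1.9.0). A cluster was named from at least 3 listed markers, and clusters with at least 3 cartilage genes among their top 10 stayed unnamed, a rule chosen after seeing the data. UMIs were summed per class and model. Genes with at least 50 UMIs over both groups of a contrast were tested by the fold and by whether fractions overlapped. Log2 ratios are of pooled CPM, with 3 counts standing in for a group at 0. Intervals are exact Poisson for levels and conditional binomial for ratios (scipy 1.17.1, numpy 2.4.6, pandas 2.3.3). PCR copies are removed by UMIs, but intervals still cover counting error only. With 1 suspension per model edgeR's quasi-likelihood test could not be run, and edgeR 4.0.16 and DESeq2 1.42.0 gave alternative size factors only. Calling was tested on simulated data.

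All 33 genes are named. By rule, fraction values are given for the 6 of highest pooled CPM, the 4 highest and 4 lowest ratios and Myc, and the wider list is represented by its 4 highest and 4 lowest ratios and the Myc network by all genes with at least 50 UMIs. Fraction values of Fbl, Nhp2, Wdr12, Bop1, Pes1 and Mxd1 were added after their values were seen. The 33 genes and all lists were chosen with earlier results of these data known. Sequences come from RefSeq on GRCm38.p6.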

Additional observations from a re-analysis of the deposited data

Results flagged for a closer look

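In 37 sets of 4 fractions, each set being 1 quantity in 1 class and model, 3 had a sample far from the others by Dixon's ratio, and chance flags about 1 in 20 such sets. All 3 were the first WB1P fraction, which held 65 of the 1307 kept WB1P cells. The 33 genes summed to 117.4 UMIs per 10000 in its epithelial-like cells, against 83.8 to 89.5 in the other fractions. In its macrophage-like cells they summed to 88.74 per 10000, against 39.9 to 44.3, and this value comes from 2 cells. Npm1 stood at 1692 CPM in its epithelial-like cells, against 939 to 1058. Without this fraction the 2.28-fold ratio of the summed genes between the models in epithelial-like cells was 2.31-fold. Of the 33 genes 27 were called higher, and calls over all genes rose too, to 2072 of 9436 from 1653 of 9466.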

How the results depend on the processing

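In epithelial-like cells the summed ratio of 2.28-fold, the median log2 ratio of 1.23 and the 26 genes called higher moved in the following alternatives. In the MiSeq run, with 4 WB1P-Myc epithelial-like cells, they were 1.547-fold, 0.81 and 1 of 18 tested, where 6 of 2225 genes were called higher, and Nolc1, Nop58 and Gnl3 turned to -0.33, -0.13 and -0.33. In the same run the fibroblast-like ratio was 1.05-fold. With epithelial-like and Schwann-like cells together the ratio was 1.90-fold and the median 0.95, with 18 of 33 called higher, beside 2185 of 10985 genes. Added after seeing the data, the MiSeq run with both classes together gave 1.717-fold with 17 of 31 tested called higher, beside 994 of 5368 genes. Thinned cells with no proliferation UMI, added likewise, gave 9 called of 15 tested, beside 179 of 1451 genes. Fewer genes reached 50 UMIs in the MiSeq run and in the thinned cells. For the split by Myc UMIs, at least 2 UMIs against none gave 0.4078-fold in WB1P, from 3 cells, and the MiSeq run thinned to 600 UMIs gave 1.194-fold in Schwann-like cells. It could not be computed in WB1P-Myc epithelial-like cells of that run, where 0 cells had Myc UMIs.

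Leaving out each fraction in turn gave 24 to 27 of the 33 genes called higher, beside 1567 to 2072 of the 8804 to 9436 genes tested. Medians were 1.115 to 1.374. Summed ratios were 2.22 to 2.32 in epithelial-like, 1.27 to 1.35 in macrophage-like and 1.29 to 1.43 in fibroblast-like cells. The Myc splits then ran from 0.885 to 1.11 in WB1P, 1.02 to 1.11 in WB1P-Myc epithelial-like and 0.956 to 1.04 in Schwann-like cells.

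The other alternatives for these summed values, medians and counts, 138 with those that leave out a fraction, stayed within the spread between fractions or within 1.5 times the count. The first WB1P fraction widens that spread, so staying within it is a loose criterion. It was flagged above in epithelial-like cells and held 2 macrophage-like and 2 fibroblast-like cells. The macrophage-like ratio of 1.30-fold ranged from 1.14-fold in the MiSeq run to 1.506-fold with 2000 variable genes. With TMM or DESeq2 size factors 26 and 25 genes were called higher, beside 1672 and 1649 of 9466 genes. Without mitochondrial and ribosomal protein UMIs in the total 29 were. There 1941 of all genes were higher and 1257 lower, against 1653 and 1472 in the main run, so all genes shifted upwards. Clustering without ribosome biogenesis genes gave 22, beside 1411 of 8819 genes, and thinned cells 20 of 30, beside 731 of 4699. Cells without markers of a second class gave 19 of 30, beside 742 of 4750. That filter kept 303 of 673 WB1P and 546 of 1374 WB1P-Myc epithelial-like cells. TMM and DESeq2 shifted all macrophage-like ratios by -0.13. Clustering in 64-bit arithmetic, also added later, gave 26, beside 1497 of 9057 genes. It left 888 cells in place of 1374 in the WB1P-Myc epithelial-like class and 653 in place of 1075 in the Schwann-like class. Another 908 WB1P-Myc cells were in an unnamed cluster. Class sizes also moved over the other filters and clusterings of the HiSeq cells. The WB1P-Myc epithelial-like class held 756 to 1515 cells. The WB1P-Myc Schwann-like class held 507 to 1761 cells, with summed levels of 129.8 to 148.5 per 10000. Of 824 single-gene values, 119 moved, and among called genes 3 changed sign as above. Among genes not called, Noc3l was at -0.04 in the MiSeq run with both classes together, Nop2 at -0.17 in thinned cells, and Wdr43 rose above 0, up to 0.08, in 3 alternatives. No paired analysis was possible because fraction numbers name droplet collections of separate suspensions and the results come from no test. Depth limits the stromal contrasts, where 23, 20 and 5 of the 33 genes had 50 UMIs.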

Other observations

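Clustering the same cells in 64-bit arithmetic was an alternative chosen after seeing the data. It drew the WB1P-Myc epithelial-like and Schwann-like cells mainly into 3 clusters with different levels of the 33 genes. Whether the cells led by myelin or cartilage genes are tumour cells was not tested. Cells led by Bex1 and Gpx2 summed to 214, 212, 198 and 197 UMIs per 10000 in fractions 1 to 4. Cells led by the myelin genes Mag and Mbp summed to 157, 144, 145 and 135. The 908 WB1P-Myc cells of an unnamed cluster led by the cartilage genes Acan and Col2a1 summed to 111, 127, 116 and 124. The fractions of the 3 clusters did not overlap. Myc stood at 206, 127 and 119 CPM in the same order, and the proliferation genes at 32.4, 22.0 and 9.87 UMIs per 10000. The clusters were drawn from these cells with these genes included, so the differences are descriptions without a test.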
